A study of Mus musculus with 6 samples.

Results

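The 10 genes described here encode signals that natural killer (NK) cells send to other cells: the cytokines Ifng, Csf2, Tnf and Ltb, the chemokines Xcl1, Ccl3, Ccl4 and Ccl5, and the death ligands Tnfsf10 and Fasl. They were chosen by gene symbol, and each was measured by 1 probe set of the array, so that they made up 10 of the 19938 genes tested. The samples were NK cells sorted from the spleens of C57Bl/6 mice aged 8 to 12 weeks, directly after the spleens were taken. The sort kept cells that were YFP+, CD27+ and NK1.1+ and lacked CD3 at the surface. In 1 group of 3 arrays the label was 15a/16-1FKO, written as knockout from here on, and in the other group of 3 it was Ctrl. The YFP+ gate was applied to both groups, and the labels do not give the driver of the deletion. The series describes the 3 arrays of each group as technical replicates, but sex-linked transcripts differed widely between them (values below), and the labels do not say whether they came from separate mice or pools. The p-values reflect the spread among these arrays. The question is how CD27+ NK cells without microRNA-15a and microRNA-16-1 differ in their transcripts.

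NK cells act by releasing lytic granules, by secreting cytokines and chemokines, and by presenting ligands that trigger death receptors on a target cell. They hold several of these transcripts ready before they are stimulated, so that protein can be made quickly after a receptor or cytokine signal. CD27 marks the less mature part of the splenic NK pool, which is known for cytokine output, whereas the most mature NK cells lack CD27 and carry CD11b. MicroRNAs pair with target messenger RNAs through the seed at their 5′ end and lower the stability or translation of those targets.

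The mature 5′ strands encoded at the deleted locus are shown because they define the genotype. The strand of microRNA-16 is also made from the related Mir16-2 gene, and the array measured precursor genes, not mature strands. Both sequences come from RefSeq (build GRCm38.p6) and lie on the minus strand, at chr14:61632075-61632096 for microRNA-15a and chr14:61631936-61631957 for microRNA-16. Capitals mark the seed, bases 2 to 8, which is the same in both.
mmu-miR-15a-5p: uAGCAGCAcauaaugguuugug
mmu-miR-16-5p: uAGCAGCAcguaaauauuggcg

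The promoters of 4 genes are shown because these genes had the differences of most interest below: Ifng was the gene whose arrays did not overlap between genotypes, Ltb and Ccl3 had the largest differences in either direction, and Tnf is the immediate neighbour of Ltb. Each window holds 250 bases before and 50 bases after the gene's start, read 5′ to 3′ on the gene's strand, from RefSeq in GRCm38.p6. The windows are chr10:118440796-118441095 (plus strand) for Ifng, chr17:35194257-35194556 (plus) for Ltb, chr17:35201958-35202257 (minus) for Tnf and chr11:83649329-83649628 (minus) for Ccl3. Capitals mark matches, on either strand, to the core MYB motif AACNG and to the kappa-B consensus.
Ifng: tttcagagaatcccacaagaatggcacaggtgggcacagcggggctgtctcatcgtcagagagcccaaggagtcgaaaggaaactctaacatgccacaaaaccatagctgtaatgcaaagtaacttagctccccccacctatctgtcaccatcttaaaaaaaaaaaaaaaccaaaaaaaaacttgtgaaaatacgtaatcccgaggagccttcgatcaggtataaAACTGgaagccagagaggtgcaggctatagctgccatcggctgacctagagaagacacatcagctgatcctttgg
Ltb: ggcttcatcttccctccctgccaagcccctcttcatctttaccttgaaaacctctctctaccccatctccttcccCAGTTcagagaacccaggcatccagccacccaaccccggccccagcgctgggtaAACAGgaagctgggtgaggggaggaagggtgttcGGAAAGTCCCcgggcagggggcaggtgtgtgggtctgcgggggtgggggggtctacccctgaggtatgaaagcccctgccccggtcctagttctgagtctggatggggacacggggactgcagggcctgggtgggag
Tnf: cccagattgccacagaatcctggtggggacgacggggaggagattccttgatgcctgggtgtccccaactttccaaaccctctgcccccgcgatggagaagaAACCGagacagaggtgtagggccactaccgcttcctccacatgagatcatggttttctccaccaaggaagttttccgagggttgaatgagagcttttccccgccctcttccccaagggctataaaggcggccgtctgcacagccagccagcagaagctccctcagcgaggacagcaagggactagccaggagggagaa
Ccl3: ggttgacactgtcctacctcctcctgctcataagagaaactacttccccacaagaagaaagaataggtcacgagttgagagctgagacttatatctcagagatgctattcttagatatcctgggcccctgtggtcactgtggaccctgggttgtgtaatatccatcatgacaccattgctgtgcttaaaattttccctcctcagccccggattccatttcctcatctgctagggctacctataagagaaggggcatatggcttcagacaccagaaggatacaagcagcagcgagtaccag

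Windows were found for 8 of the 10 genes. The MYB core was in 6 of these 8 and in 80.3% of 32851 promoter windows in the table, so a match to it is common. The kappa-B consensus was in the window of Ltb, 1 of 8, where it began at -87 relative to the start, and in 8.46% of all windows. The windows of Ifng and Tnf each held 1 match to the MYB core, that of Ltb held 2, and that of Ccl3 held none of either. The AP-1 motif TGANTCA, present in 7.81% of all windows, and the CRE motif TGACGTCA, present in 1.79%, had no match in any of the 8. The T-box motif GGTGTGA matched 1 of the 8 windows, that of Xcl1, and 3.98% of all windows. These matches describe the letters of the windows and were not measured as binding sites.

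The arrays differed between genotypes at the deleted locus, and within genotypes in transcripts that depend on sex. The Mir15a probe set lay between 3.43 and 4.37 on the log2 scale in knockout arrays and between 6.02 and 7.14 in Ctrl arrays. Its difference of -2.84 (SE 0.31) passed the test over all genes (limma, adjusted p = 0.0296). The Mir15a value of 4.37, in knockout replicate 1, was above the background level of 4.13 defined below. The Mir16-1 probe set lay between 2.61 and 3.00 in knockout and between 3.19 and 3.77 in Ctrl arrays, all under that level. Its difference of -0.63 (SE 0.19), without overlap, did not pass the test (limma, adjusted p = 0.999). Over all 19938 genes, 4 passed an adjusted p of 0.05 (limma, Benjamini-Hochberg), which is 0.0201%, 3 of them higher and 1 lower in the knockout. All 9 measured NK markers lay above the background level of 4.13, under which 95% of 1027 olfactory receptor genes lay. Ncr1 was at 10.57 ± 0.14 in knockout and 10.53 ± 0.17 in Ctrl arrays, and Klrb1c, which encodes NK1.1, at 9.73 ± 0.10 and 9.72 ± 0.05 (mean ± SD, n = 3 arrays each). Of 10 T cell markers, 5 lay above background, among them Cd3d, Cd3e and Cd3g, while Cd4, Cd8a and Cd8b1 did not. The female transcript Xist was highest in Ctrl replicate 1 (9.65) and lowest in Ctrl replicate 2 (3.89), and the other 4 arrays lay between 7.56 and 8.86. The mean of 3 Y-linked genes was lowest in Ctrl replicate 1 (2.93) and highest in knockout replicate 1 (6.90) and Ctrl replicate 2 (6.75), with the others between 4.80 and 5.47. The range of each difference with 1 array left out is given below for this reason.

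None of the 10 genes passed the test over all genes, and the set was split evenly. In the knockout 5 genes were higher (Ltb, Xcl1, Tnfsf10, Fasl and Ccl5) and 5 lower (Ifng, Ccl3, Tnf, Ccl4 and Csf2), beside 47.9% of all genes higher. After a second quantile normalization, which turned Ccl5, the split was 4 higher and 6 lower. The median difference was -0.02 on the log2 scale, against -0.01 over all genes. By limma 0 of 10 passed at the adjusted threshold of 0.05 (adjusted p = 0.999 for each), beside 0.0201% of all genes, and 0 of 10 had an unadjusted p under 0.05, beside 3.47% of all genes. Values of the genotypes were fully separate for 1 of 10, Ifng, beside 8.33% of all genes. All 10 genes lay above the background level on average. Differences below are knockout minus Ctrl on the log2 scale. Levels of the 10 genes are not ranked against each other, because probes bind their targets with different strength. The same limit applies where a level is set against the background level or called the highest of a list. RNA from whole sorted populations was measured, so fewer cells with a transcript and less of it per cell cannot be told apart.

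**Figure D1:**
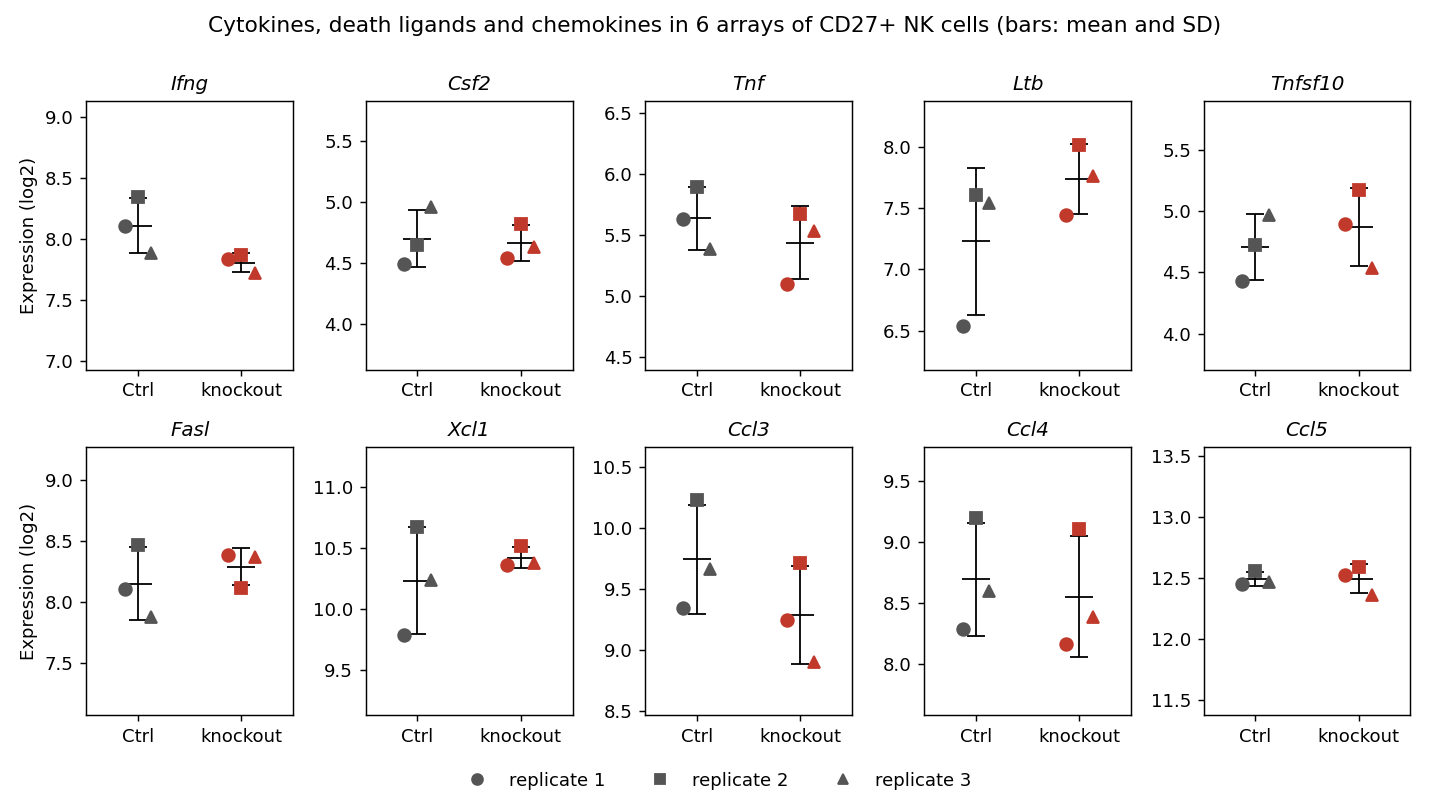
Log2 expression (vertical axes, each spanning the same 2.2 units) of the 10 genes in 3 Ctrl (grey) and 3 knockout (red) arrays, with replicate numbers as symbols and bars for mean and SD. The genotypes overlap in each panel except that of Ifng, and Ctrl replicate 1 is the lowest point for Ltb at 6.54 and for Xcl1 at 9.79.

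Ifng encodes interferon-gamma, the cytokine by which NK cells activate macrophages and raise antigen presentation. Its probe set (10366586) read 7.84, 7.87 and 7.72 in the 3 knockout arrays and 8.10, 8.34 and 7.89 in the 3 Ctrl arrays. Every knockout array was below every Ctrl array, although the highest knockout value and the lowest Ctrl value were only 0.02 apart. The means were 7.81 ± 0.08 and 8.11 ± 0.23 (SD, n = 3 arrays each), a difference of -0.30 (SE 0.15, 95% interval -0.65 to 0.04), or 0.81-fold with an interval of 0.64 to 1.03. The unadjusted limma p was 0.0782. By exact permutation (two-sided) p was 0.1, which is the lowest this design of 3 and 3 can reach. Leaving out 1 array gave differences from -0.41 (without Ctrl replicate 3) to -0.19 (without Ctrl replicate 2, which held the highest value).

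Csf2 encodes GM-CSF, a growth and activation factor of myeloid cells. It read 4.54, 4.82 and 4.63 in knockout arrays and 4.49, 4.65 and 4.95 in Ctrl arrays (probe set 10385912), not far above the background level. The genotypes overlapped fully, with the knockout values inside the Ctrl range. The difference was -0.04 (SE 0.16, 95% interval -0.40 to 0.33), and with 1 array left out it ran from -0.14 (without Ctrl replicate 1) to 0.09 (without Ctrl replicate 3).

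Tnf encodes tumour necrosis factor, an inflammatory cytokine that can also kill sensitive cells. It read 5.10, 5.68 and 5.54 in knockout arrays and 5.63, 5.89 and 5.39 in Ctrl arrays (probe set 10450501). Knockout replicate 1 was the lowest array and Ctrl replicate 2 the highest, and the remaining 4 were interleaved. The difference was -0.20 (SE 0.19, 95% interval -0.63 to 0.23), and with 1 array left out it ran from -0.32 (without Ctrl replicate 3) to -0.03 (without knockout replicate 1). It was -0.07 without Ctrl replicate 2.

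Ltb encodes lymphotoxin beta, the membrane-bound partner of lymphotoxin alpha, which signals through the lymphotoxin beta receptor to stromal and dendritic cells. It had the largest positive difference of the 10 genes and the widest spread. Its probe set (10444752) read 7.44, 8.02 and 7.76 in knockout arrays and 6.54, 7.61 and 7.54 in Ctrl arrays. Ctrl replicate 1 was 0.90 below the lowest knockout array, whereas the other Ctrl arrays lay within the knockout range. The difference was 0.51 (SE 0.28, 95% interval -0.11 to 1.14), or 1.43-fold, with an unadjusted p of 0.0973 by limma. Without Ctrl replicate 1, the array with the highest Xist, it was 0.17, and without Ctrl replicate 2 it was 0.70. With a covariate for the sex-linked transcripts it was 0.52 (SE 0.26). This covariate, Xist minus the Y-linked mean, was 0.66, 3.11 and 4.03 in knockout arrays and 6.72, -2.86 and 3.66 in Ctrl arrays. Its genotype means were thus nearly equal, so here and below it could shift a difference only a little, whatever the effect of sex. Ltb and Tnf are neighbours on chromosome 17 in the GRCm38.p6 gene order, and Lta, the next gene after Tnf, encodes lymphotoxin alpha. Of these 3 neighbours Ltb was higher in the knockout on average and the others lower, and Lta lay under the background level in all 6 arrays (3.56 to 4.11).

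The chemokines of NK cells recruit other leukocytes, and among the 4 of them 2 differences were positive and 2 negative. Xcl1 encodes lymphotactin, which attracts the cross-presenting dendritic cells that carry XCR1. It read 10.36, 10.51 and 10.38 in knockout arrays and 9.79, 10.67 and 10.24 in Ctrl arrays (probe set 10359697). The knockout arrays lay close together, with an SD of 0.09, and inside the Ctrl range, whose SD was 0.44. The difference was 0.19 (SE 0.21, 95% interval -0.28 to 0.65) and turned to -0.04 without Ctrl replicate 1. Without Ctrl replicate 2 it was 0.40, so that these 2 arrays pulled it in opposite directions. With the covariate for sex-linked transcripts it was 0.19 (SE 0.16).

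Ccl3 and Ccl4 encode MIP-1 alpha and MIP-1 beta, related chemokines that attract monocytes and T cells, and they are adjacent on chromosome 11. Ccl3 (probe set 10389231) read 9.25, 9.71 and 8.91 in knockout arrays and 9.34, 10.22 and 9.66 in Ctrl arrays. Knockout replicates 1 and 3 were the lowest of all arrays, while knockout replicate 2 was above 2 of the 3 Ctrl arrays. The means were 9.29 ± 0.40 and 9.74 ± 0.45 (SD, n = 3 arrays each), a difference of -0.46 (SE 0.26, 95% interval -1.03 to 0.12), or 0.73-fold. It was the largest negative difference of the 10 genes (unadjusted p = 0.107 by limma), and with 1 array left out it ran from -0.67 (without knockout replicate 2) to -0.22 (without Ctrl replicate 2). With the covariate for sex-linked transcripts it was -0.45 (SE 0.21).

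Ccl4 (probe set 10379721) read 8.17, 9.11 and 8.38 in knockout arrays and 8.29, 9.19 and 8.60 in Ctrl arrays. Each genotype had 1 high array, replicate 2 in both, and the genotypes overlapped. The difference was -0.14 (SE 0.28, 95% interval -0.77 to 0.49), and with 1 array left out it ran from -0.42 (without knockout replicate 2) to 0.11 (without Ctrl replicate 2). It was 0.05 without knockout replicate 1.

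Ccl5 encodes RANTES, a chemokine that resting NK and memory T cells keep as stored transcript. It read 12.52, 12.59 and 12.36 in knockout arrays and 12.45, 12.56 and 12.47 in Ctrl arrays (probe set 10389207). All 6 values lay within 0.23 of each other, the narrowest range of the 10 genes. The difference was 0.00 (SE 0.13, 95% interval -0.30 to 0.30), which leaves room for a change between 0.81-fold and 1.23-fold. Its values were near the top of the array's scale, whose highest value was 13.6.

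Of the death ligands, Tnfsf10 encodes TRAIL, which engages the death receptor TRAIL-R2 in mice and is carried by immature NK cells and by type 1 innate lymphoid cells (ILC1). It read 4.90, 5.18 and 4.54 in knockout arrays and 4.43, 4.72 and 4.97 in Ctrl arrays (probe set 10491091). These values were low and interleaved, with a difference of 0.17 (SE 0.20, 95% interval -0.29 to 0.62), and of 0.01 without knockout replicate 2, 0.03 without Ctrl replicate 1 and 0.33 without knockout replicate 3. Itga1, an integrin of ILC1, had the smallest unadjusted p (limma) in the fixed list of 8 ILC1 markers. It was at 4.39 ± 0.12 in knockout and 3.88 ± 0.30 in Ctrl arrays (n = 3 each), a difference of 0.51, with the Ctrl mean under the background level. The mean over these 8 markers ranged from 5.09 to 5.39 in knockout arrays and from 5.12 to 5.34 in Ctrl arrays, with 4 higher and 4 lower and Cd200r1 below the background level in both. The part of ILC1 in the Tnfsf10 values was not tested.

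Fasl encodes Fas ligand, which kills cells that carry Fas. It read 8.38, 8.11 and 8.37 in knockout arrays and 8.10, 8.47 and 7.87 in Ctrl arrays (probe set 10359434). The knockout values lay inside the Ctrl range. The difference was 0.14 (SE 0.18, 95% interval -0.26 to 0.54), and with 1 array left out it ran from 0.00 (without Ctrl replicate 3) to 0.30 (without Ctrl replicate 2). Both death ligands thus had positive mean differences smaller than the spread of their Ctrl arrays.

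**Figure D2:**
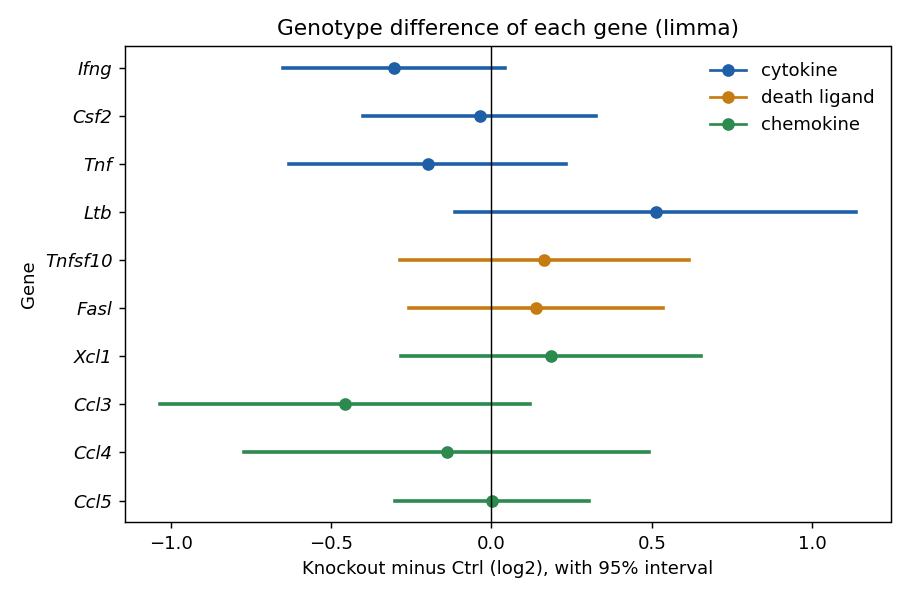
Knockout minus Ctrl difference (log2, horizontal axis) of each gene with its 95% interval from limma, coloured by role. Every interval includes 0, from Ltb at 0.51 to Ccl3 at -0.46, and that of Ccl5 is the narrowest.

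The precision differed between genes. The 95% intervals were narrowest for Ccl5 (0.81-fold to 1.23-fold) and Ifng (0.64-fold to 1.03-fold), and widest for Ccl4 (0.59-fold to 1.41-fold) and Ltb (0.92-fold to 2.20-fold). A doubling in the knockout lay outside the interval of each gene except Ltb. A fall to 0.5-fold lay outside it for each gene except Ccl3, whose interval reached 0.49-fold.

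Much of the variation of these genes lay between arrays of 1 genotype. Within the knockout, replicate 2 was the highest array for 9 of the 10 genes, all but Fasl, beside 35.5% of all genes. Within Ctrl, replicate 2 was the highest for 8 of 10, all but Csf2 and Tnfsf10, beside 33.5% of all genes. Both held for 7 genes, Ifng, Tnf, Ltb, Xcl1, Ccl3, Ccl4 and Ccl5, beside 13.8% of all genes and 17.5% of the 10892 genes above background. This pattern was seen after the values were known, and Xist was at 3.89 in Ctrl replicate 2 but at 8.58 in knockout replicate 2. Ctrl replicate 1 was the lowest Ctrl array for 7 of 10 genes, beside 28.0% of all genes. The mean over the 10 genes was 7.85, 8.16 and 7.86 in the knockout arrays and 7.72, 8.23 and 7.96 in the Ctrl arrays, so that the genotypes overlapped.

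The genes with the largest range over the 6 arrays were Ltb (1.48), Ccl3 (1.32) and Ccl4 (1.02). Ccl3 and Ccl4 varied alike, with a Pearson correlation of 0.83 over the 6 arrays, which share the normalization. This was not particular to the adjacent pair. Ltb and Xcl1, on different chromosomes, had a higher correlation of 0.87, and Ifng and Ccl3 had 0.78. Some immediate early genes among the regulators, picked after their values were seen, differed between arrays of 1 genotype. Junb, a subunit of AP-1, was highest in replicate 2 of both genotypes, at 6.88 and 6.96, against 5.89 to 6.37 in the other arrays. Jun, another subunit, was at 6.89 and 6.63 in those arrays and lowest in knockout replicate 3, at 5.17. Fos was lowest in replicate 3 of both genotypes, at 3.66 and 4.02, and between 4.89 and 5.21 in the others. Egr1, another immediate early factor, was highest in replicate 2 of both genotypes by less, at 5.76 and 5.52, against 4.99 to 5.42 elsewhere. Zfp36, which encodes an RNA-binding repressor of Tnf, was flat among Ctrl arrays (7.24 to 7.25) and highest in knockout replicate 1, at 7.62. The part of these differences in the cytokine values was not tested.

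**Figure D3:**
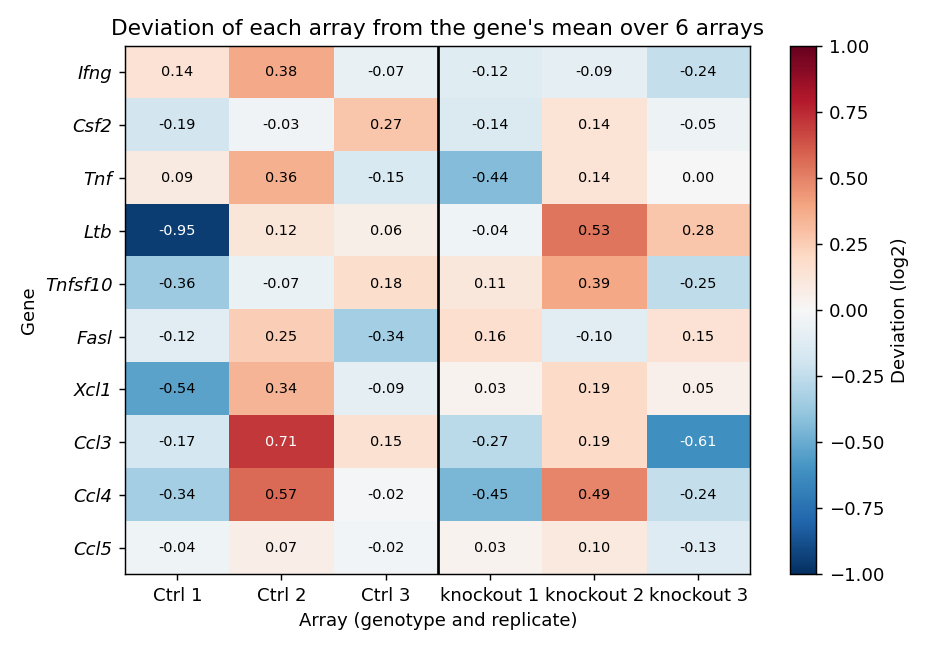
Deviation of each array (columns) from each gene's own mean over the 6 arrays (rows), on the log2 scale, with Ctrl arrays to the left of the line and knockout arrays to the right. Replicate 2 is mostly red in both genotypes, the lowest cell is Ltb in Ctrl replicate 1 at -0.95, and the highest is Ccl3 in Ctrl replicate 2 at 0.71.

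Among 9959 other genes at or above the median level, those with the profile closest to each gene were found by the largest gap in any of the 6 arrays after each profile was centred on its own mean. Xcl1 was matched most closely, by Tbc1d2b, which stayed within 0.05 in every array. Cchcr1 stayed within 0.07 of Ifng, Rmc1 within 0.07 of Fasl, Smtnl1 within 0.08 of Tnf and Dpp3 within 0.08 of Tnfsf10. The profiles with wide ranges had looser matches, with Lime1 within 0.12 of Ccl4, Uqcc2 within 0.16 of Ccl3 and Med28 within 0.17 of Ltb. Each match is the best of 9959 genes over 6 values, so a close one can arise by selection alone, and none was tested. For Ifng the second best gene had nearly the same largest gap, 0.074 against 0.073. Csf2 and Ccl5 varied too little for this search, with ranges under 0.5.

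The other ligands of the same families held no gene past the test. Counts of higher and lower genes in this and the later lists stand beside 47.9% of all genes higher. Among 12 further measured ligands of the TNF superfamily, 4 were higher and 8 lower in the knockout, and 4 lay above background. Tnfsf9, which encodes the 4-1BB ligand, differed by -0.55 (SE 0.23), with a knockout mean under the background level. Tnfsf14, which encodes LIGHT, differed by -0.51 (SE 0.24) and Tnfsf8, the CD30 ligand, by 0.30 (SE 0.15). Tnfsf8 was higher in all 3 knockout arrays, at 5.50 to 5.55, against 5.07 to 5.50 in Ctrl arrays, and the arrays did not overlap. Tnfsf14 was at 5.47 to 5.68 in the knockout and at 5.45, 6.34 and 6.46 in Ctrl arrays.

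Of 31 other chemokines 10 were higher and 21 lower, but 26 of them lay at or below the background level. The 3 with the smallest p were Ccl9 (-0.44, SE 0.19), Cxcl16 (-0.26, SE 0.13) and Ccl1 (-0.20, SE 0.14), all below the background level. Of 27 other cytokines 8 were higher and 19 lower, with 8 above background. Il2 differed by -0.70 (SE 0.34), which rested on Ctrl replicate 3 at 5.44, against 3.68 to 4.11 in the other 5 arrays. Il21 (-0.21, SE 0.14) and Il9 (-0.17, SE 0.15) were below the background level.

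Receptors for the 10 ligands, read on the NK cells themselves, showed 6 higher and 8 lower of 14 measured, with 6 above background. Csf2rb2, a beta chain related to the GM-CSF receptor, differed by -0.40 (SE 0.14) without overlap, with both means under the background level. Csf2ra, the GM-CSF receptor alpha chain, differed by -0.30 (SE 0.17), and Ccr1, a receptor of Ccl3 and Ccl5, by -0.28 (SE 0.15), below the background level.

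Of 28 regulators of these genes, all above background, 20 were higher and 8 lower, and 18 and 10 after a second quantile normalization. Their median difference was 0.05, and 0.03 after that normalization. Myb, the factor that the title of the study names, read 7.33 ± 0.05 in knockout and 7.11 ± 0.08 in Ctrl arrays (n = 3 each), a difference of 0.22 (SE 0.13) without overlap. The NF-kappa-B subunits differed in direction, with Rela at 0.27 (SE 0.19) and Nfkb2 at -0.24 (SE 0.18).

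Genes that interferon-gamma induces were more often lower than higher in the knockout, and none passed the test. Of 17 measured, 4 were higher and 13 lower, beside 47.9% of all genes higher, and 4 did not lie above background. The median was -0.09, against -0.01 over all genes, and the same 4 and 13 were counted after each of the other scalings. Cxcl9 and Cxcl10 were counted both here and among the other chemokines. The part of Ifng in these differences was not tested. Irf1, a transcription factor induced by interferon-gamma, read 7.75, 7.75 and 7.53 in knockout arrays and 7.82, 8.25 and 7.79 in Ctrl arrays, without overlap (difference -0.28, SE 0.17). Irf8, a related factor, differed by -0.36 (SE 0.19), and Gbp3, a guanylate-binding protein, by 0.28 (SE 0.17). Ctrl replicate 2 held the highest value of Ifng, Irf1 and Irf8 alike. It was also the highest Ctrl array for 8 of the 10 genes and for 33.5% of all genes. Of 13 genes that act below death receptors, 3 were higher and 10 lower, with a median of -0.10. The inhibitor of NF-kappa-B Nfkbia differed by -0.22 (SE 0.15), Tnfaip8 by 0.38 (SE 0.27) and the adaptor Tradd by -0.22 (SE 0.16).

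**Figure D4:**
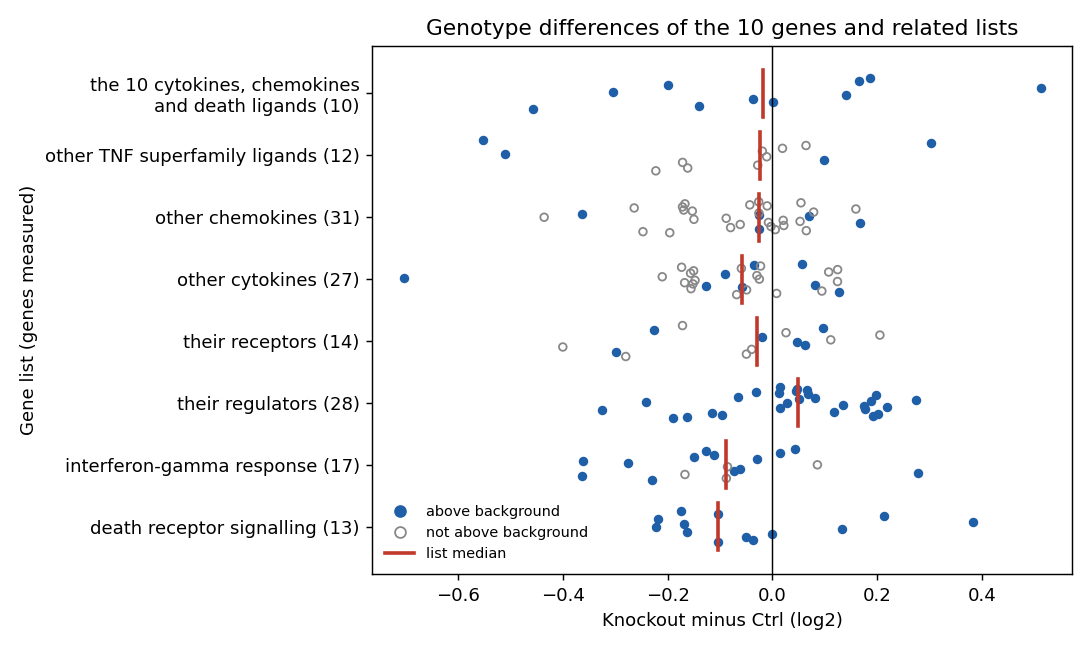
Knockout minus Ctrl difference (log2, horizontal axis) of each measured gene in the 10 genes and 7 related lists, with filled points for genes above the background level, open points for the others, and red lines for list medians. The medians lie between -0.10 and 0.05, and the 10 genes reach from -0.46 to 0.51.

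Lists of markers of other cell types were read in the same arrays, and no marker passed the test. The mean over 10 T cell markers ranged from 5.37 to 5.63 in knockout and from 5.45 to 5.52 in Ctrl arrays, with 6 higher and 4 lower. Cd28, the highest of these markers at 8.43 in knockout and 8.00 in Ctrl arrays, was higher in the knockout by 0.43 (SE 0.14) without overlap. The mean over 12 macrophage, monocyte and dendritic cell markers ranged from 4.40 to 4.52 and from 4.46 to 4.52, with 6 higher and 6 lower and Csf1r and Cd14 below the background level in both genotypes. Itgax (9.27 and 9.07) and Fcgr3 (7.52 and 7.33) were the highest of this list, in which 8 markers did not lie above background. The class II genes H2-Ab1 and H2-Aa differed in opposite directions, by -0.58 (SE 0.20) and 0.11 (SE 0.18), and neither was above background on average. The mean over 10 neutrophil markers ranged from 4.21 to 4.78 and from 4.31 to 4.53. It was highest in knockout replicate 1, the lowest knockout array for 5 of the 10 genes (38.7% of all genes) and the highest for 1, Fasl. Among Ctrl arrays it was highest in replicate 2, the highest Ctrl array for 8 of the 10 genes (33.5% of all genes). Of the neutrophil markers 5 were higher and 5 lower, with S100a8 at 0.77 (SE 0.32), its partner S100a9 at 0.18 (SE 0.49) and Cxcr2 at -0.55 (SE 0.28). The mean over 8 basophil and mast cell markers ranged from 3.22 to 3.40 and from 3.20 to 3.36, with 2 above background. The mean over 9 B cell markers ranged from 3.52 to 3.72 and from 3.47 to 3.87, and that over 4 erythroid markers from 3.76 to 4.12 and from 3.90 to 4.25. Whether the NK cells themselves carry some of these markers was not tested, nor was the part of other cells in the differences of the 10 genes.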

How the data were processed

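The values are on a log2 scale in a table the authors deposited (35556 probe sets, 6 arrays, 0.74 to 13.6). RMA and Partek 6.6 made them, per the submitters' processing notes, which give no order of steps. A genome build was not stated in those notes, and microarray values carry no read depth. RMA values near background understate differences. Gene names came from the platform annotation at GEO, and each gene was represented by its brightest probe set (19938 genes). Genotypes were compared with limma 3.58.1 under R 4.3.3 (two-sided moderated test from lmFit and eBayes, without covariates), with Benjamini-Hochberg adjustment over all genes. The fit was tested on simulated data.

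The genes and lists were chosen with earlier results of these data known. Named are all 10 genes, the 3 genes with the smallest p in each list, and the closest profile to each gene. Jun, Junb, Fos, Egr1, Zfp36, Lta, Cd28, the markers and the array pattern were picked after their values were seen. Alternatives covered scaling, a filter on dim genes, the variance prior, array weights, probe set choice, a sex covariate, a replicate block and leaving out each array.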

Additional observations from a re-analysis of the deposited data

How the results depend on the processing

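No difference of the 10 genes passed the adjusted threshold in any of 16 alternatives (limma), in which the smallest adjusted p was 0.991. The direction was kept in 150 of 160 gene and alternative pairs, and in all 16 for Ifng, Tnf, Ltb, Ccl3, Tnfsf10 and Fasl. Part of this count was fixed in advance. The filter on dim genes, the variance prior, the probe set choice and the replicate block could not change a difference. This is because each of the 10 genes has 1 probe set and the block is balanced. Only scaling, array weights, the sex covariate and leaving out an array could turn a direction. Ccl5 turned to -0.068 after a second quantile normalization. With 1 array left out, Ccl5 ranged from -0.048 to 0.068, Csf2 from -0.14 to 0.092, Ccl4 from -0.42 to 0.11 and Xcl1 from -0.035 to 0.40. Over all genes 4 passed, 2 to 3 with 1 array left out, 2 with the sex covariate, and 0 when all 35556 probe sets were tested (limma, 1214 at an unadjusted p under 0.05). The cause was not tested. Same-numbered arrays deviated together with correlations of 0.05, 0.15 and 0.14 over 19938 genes, and every array correlated best with its own number, a hint from the data. For number 1 the margin was small, at 0.048 against 0.042 for knockout 1 with Ctrl 2 and 0.045 for knockout 3 with Ctrl 1. Since 1 pair lay under 0.1, the numbers were not taken as pairs. With the replicate number as a block 3 genes passed, none of the 10, and Ltb differed by 0.51 (SE 0.17, unadjusted p = 0.0167) and Ccl3 by -0.46 (SE 0.17, unadjusted p = 0.0256), with an adjusted p of 0.999 each (limma). The number of arrays and the signal over background of Csf2 and Tnfsf10 limit what could be seen.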
